A study of Mus musculus with 18 samples.

Results

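The genes described here are Trp53, which encodes the transcription factor p53, its inhibitors Mdm2 and Mdm4, and 7 genes that p53 switches on: Cdkn1a, Ccng1, Sesn1, Zmat3, Phlda3, Trp53inp1 and Aen. They were listed by name as genes of the p53 pathway, with earlier results of these data known. Each of the 10 had a row in both count tables, among 13104 genes in ESCs and 13717 in EpiLCs. The study exposed mouse embryonic stem cells (ESCs), and the epiblast-like cells (EpiLCs) derived from them, to the cannabinoid Δ9-THC and sequenced their poly(A) RNA. Levels are given as CPM, each gene’s counts over the TMM-scaled library size, brought to a common total.

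There were 4 groups of 3 biological replicates, 12 libraries in all. ESCs were grown in 2i+LIF medium with 100 nM Δ9-THC or with vehicle (0.05% ethanol) for 48 h. EpiLCs were induced from ESCs with activin A, bFGF and serum replacement on fibronectin, with the same dose or vehicle kept through both stages. All groups carried the Blimp1::mVenus and Stella::ECFP reporters. The methods name a female and a male clone, and the study says of its proliferation data that they came from female ESCs. The labels of the RNA libraries state no clone, and every value describes reporter cells in culture. The 6 libraries of primordial germ cell-like cells were not analysed here.

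As background, p53 is held at a low level in unstressed cells by Mdm2, a ubiquitin ligase that marks it for degradation, and by Mdm4, which binds and masks its activation domain. When DNA is damaged or growth is disturbed, p53 protein accumulates and switches on genes for cell cycle arrest, repair, metabolic restraint and death, among them Mdm2 itself, which closes a feedback loop. Much of this control acts on the protein, so that transcript levels of Trp53 do not report p53 activity, and mouse ESCs are known for abundant p53 and a short G1 phase with little arrest there.

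The labelled cell types were checked against marker genes. The 12 naive pluripotency genes, led by Tfcp2l1 in ESCs, summed to 5029, 5426 and 5196 CPM in vehicle ESCs and to 539.5, 549.9 and 575 CPM in vehicle EpiLCs. The formative and primed epiblast genes, led by Dnmt3b, summed to 167, 172 and 181 CPM in vehicle ESCs, where Fgf5 had no row, and to 2004, 2135 and 1793 CPM in vehicle EpiLCs. Naive markers were thus high in the libraries labelled ESCs and formative markers high in those labelled EpiLCs. Markers of other cells a culture could hold were summed too, over the genes with a row in each table, which differ. In vehicle ESCs the mean sums were 2.94 CPM for primitive endoderm (1 of 7 genes, Gata4), 2.32 for 2-cell-like cells (2 of 6), 12.8 for mesoderm (3 of 5), 44.6 for neural cells (2 of 4, mostly Nes) and 6.22 for fibroblasts (2 of 5). In vehicle EpiLCs they were 7.81 CPM for primitive endoderm (2 of 7, mostly Dab2 at 6.83, with Gata4 at 0.972), 7.65 for 2-cell-like cells (3 of 6), 6.02 for mesoderm (2 of 5), 84.4 for neural cells (3 of 4) and 17.0 for fibroblasts (4 of 5). Gata6, Sox17, Sox7, Pdgfra, Foxa2, Zfp352, Tcstv1, Tcstv3, Mesp1, Neurog2 and Twist2 had no row in either table.

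Some of these sums separated exposed from vehicle libraries. The 5 genes of shared pluripotency summed to 1179, 1246 and 1208 CPM in vehicle ESCs and 1164, 1106 and 1150.2 in exposed ESCs, and to 1055, 1078 and 1137 in vehicle EpiLCs and 1043, 1027 and 969.9 in exposed EpiLCs. Among them the means of Pou5f1 were 373 and 316 CPM in vehicle and exposed ESCs, whose libraries overlapped, and 367 and 314 CPM in EpiLCs. Those of Sox2 were 378 and 381 CPM in ESCs and 92.3 and 108 CPM in EpiLCs. Neural markers were lower in all 3 exposed ESC libraries (40.8, 35.7 and 37.7 CPM against 41.5, 47.1 and 45.1), the low 2-cell-like sum was higher in all 3 exposed ESC libraries (3.48, 2.744 and 3.35 CPM against 2.07, 2.736 and 2.15), and the low primitive endoderm sum was higher in all 3 exposed EpiLC libraries (8.57, 9.88 and 9.85 CPM against 8.48, 7.54 and 7.39). Some single naive and formative markers also separated in both cell types, in both directions. Tfcp2l1 was higher in exposed ESCs, with means of 1279 CPM with vehicle and 1377 CPM with Δ9-THC. Otx2 was higher there too (4.88 and 5.67 CPM). Lower there were Esrrb (887 and 828 CPM), Klf2 (248 and 215 CPM), Pou3f1 (3.83 and 1.97 CPM) and Sox3 (3.99 and 3.02 CPM). In exposed EpiLCs Nanog (187 and 205 CPM), Tbx3 (2.08 and 2.76 CPM) and Prdm14 (0.925 and 1.40 CPM) were higher. Lef1 was lower in them (35.2 and 31.2 CPM). Across each whole table, 16.7% separated upward and 15.9% downward in ESCs, and 11.2% and 10.6% in EpiLCs. The part of these differences in the results that follow was not tested.

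The libraries of a cell type were not independent of each other. Across all genes, the deviation of a vehicle library from its group mean ran opposite to that of the exposed library with the same replicate number, with Pearson r of −0.987, −0.979 and −0.977 over 13104 genes in ESCs and −0.979, −0.979 and −0.985 over 13717 genes in EpiLCs. The counts were already batch-adjusted by the authors, SDs describe adjusted counts, and the cause of the mirrored deviations was not tested. Among the 10 members the mirror is plain to see: vehicle EpiLC replicate 2 held the highest vehicle level for 8 members, and exposed EpiLC replicate 2 the lowest exposed level for the same 8. The p-values below treat the libraries as independent. With replicate number as a block in edgeR, genes at an unadjusted p under 0.05 fell from 3761 to 1454 in ESCs. In EpiLCs they fell from 2069 to 291.

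Exposed and vehicle libraries were compared in each cell type by edgeR's quasi-likelihood test over the whole table, with BH adjustment and a threshold of 0.05. In ESCs 906 of 13104 genes passed (6.91%), 441 higher and 465 lower, and 0 of the 10 members did; at an unadjusted p under 0.05 there were 4 members, Trp53, Cdkn1a, Phlda3 and Aen, against 28.7% of all genes, and DESeq2 called 1 member and 759 genes. In EpiLCs edgeR called 0 of 13717 genes (0%) and 0 members, with 2 members, Mdm4 and Phlda3, at an unadjusted p under 0.05 against 15.1% of all genes, and DESeq2 called 1 member and 87 genes. The difference of the exposure effect between cell types was tested in 12410 shared genes, of which edgeR called 4 (0.0322%) and 0 members; Mdm2 and Mdm4 had an unadjusted p under 0.05 there, against 13.7% of all genes, and DESeq2 called 0 members and 133 genes. Counts this small, set beside these shares, say nothing particular to the members.

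The count of 906 depended on some choices of fit. It was 759 by DESeq2, 878 with RLE normalization, and 906 both without a filter and with at least 10 counts in every library. Leaving out vehicle or exposed ESC replicate 2 left 1 gene called, and leaving out any other ESC library left 0. The count was 2 with offsets that remove each library's trend with GC content and gene length. It was 31 in a joint fit of the 12 libraries, which also tested fewer genes, the 12410 shared ones. With replicate number as a block it was 5, and with block and offsets together 3. The 4 genes called for the difference between cell types became 0 with any 1 of the 12 libraries left out, with the offsets and with the block.

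Trp53 itself was read at 298, 292 and 297 CPM in vehicle ESCs and at 280.1, 287 and 283 CPM in exposed ESCs. Every exposed ESC library lay under every vehicle library, within a narrow band. The log2(fold-change) was −0.061 (SE 0.024, edgeR unadjusted p = 0.0441, edgeR BH-adjusted p = 0.162), or −0.0061 with GC and length offsets. In EpiLCs it was read at 226, 264 and 192 CPM with vehicle and at 193, 159 and 222 CPM with Δ9-THC. These groups overlapped, replicates 2 and 3 lay at opposite ends in the vehicle and exposed groups, and the log2(fold-change) was −0.25 (SE 0.16; edgeR BH-adjusted p = 0.494), from −0.13 without vehicle replicate 2 to −0.38 without exposed replicate 3. In bulk RNA, fewer cells of a type and less RNA per cell cannot be told apart, here or in any result below.

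Of the inhibitors, Mdm2 had 111, 115 and 110.3 CPM in vehicle ESCs and 111, 107 and 112 CPM in exposed ESCs, which overlapped. In EpiLCs it had 137, 142 and 137 CPM with vehicle and 152, 148 and 153 CPM with Δ9-THC. All exposed EpiLC libraries were higher than all vehicle ones, with a log2(fold-change) of 0.12 (SE 0.05; unadjusted p = 0.0531, edgeR BH-adjusted p = 0.338) against −0.027 in ESCs. With GC and length offsets these were 0.069 and −0.073, and the ESC value ran from −0.0042 without vehicle replicate 2 to −0.042 without exposed replicate 3. The difference between the cell types was 0.17 (SE 0.06; unadjusted p = 0.0246, edgeR BH-adjusted p = 0.288).

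Mdm4 had 216, 206 and 184 CPM in vehicle ESCs and 207, 218 and 241 CPM in exposed ESCs, with overlap. In EpiLCs it had 140.2, 134 and 128 CPM with vehicle and 163, 172 and 179 CPM with Δ9-THC. The EpiLC groups were clear of each other. In the main fits the log2(fold-change) of 0.35 (SE 0.07), or 27.8%, was the largest among the members in either cell type. It had an unadjusted p of 0.00124 and a edgeR BH-adjusted p of 0.144, in a table where no gene passed. DESeq2 called it (BH-adjusted p = 0.0254), as did the joint edgeR fit of 12 libraries (BH-adjusted p = 0.0327), in a range of 0.0254 to 1.00 over 14 alternatives. With GC and length offsets the log2(fold-change) was 0.17, smaller in size than that of Trp53 in EpiLCs (−0.22). Without exposed EpiLC replicate 3, Mdm4 (0.32) was also smaller in size than Trp53 (−0.38). The difference between cell types was 0.23 (SE 0.11; unadjusted p = 0.0478, edgeR BH-adjusted p = 0.360), or 0.12 with the offsets.

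Among targets that act on the cell cycle, Cdkn1a encodes p21, an inhibitor of cyclin-dependent kinases. It had 119.8, 118 and 121 CPM in vehicle ESCs and 113, 114 and 112 CPM in exposed ESCs. Exposed libraries were all lower, with a log2(fold-change) of −0.081 (SE 0.025, edgeR unadjusted p = 0.0157, edgeR BH-adjusted p = 0.0947), or −0.015 with GC and length offsets. In EpiLCs the level was far lower, 33.5, 37.7 and 33.9 CPM with vehicle and 35.4, 31.4 and 35.2 CPM with Δ9-THC. These overlapped, and the log2(fold-change) was −0.044, turning to 0.015 with GC and length offsets and to 0.013 without vehicle EpiLC replicate 2. In the annotation 7.68% of the exonic bases of Cdkn1a also lie in an antisense gene, and counting did not use the strand.

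Ccng1 encodes cyclin G1, which recruits a phosphatase to Mdm2. It had 168, 189 and 169 CPM in vehicle ESCs and 179.8, 159.6 and 181 CPM in exposed ESCs. In EpiLCs it had 179, 197 and 148 CPM with vehicle and 188, 168 and 222 CPM with Δ9-THC. Both comparisons overlapped widely. The log2(fold-change) was −0.016 in ESCs, 0.042 without either replicate 2 and −0.15 with GC and length offsets. In EpiLCs it was 0.14, from 0.024 without exposed replicate 3 to 0.24 without vehicle replicate 2.

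Phlda3, whose product competes with Akt for membrane lipids and so restrains it, was the member nearest to the threshold. It had 34.6, 37.2 and 39.1 CPM in vehicle ESCs and 32.5, 30.3 and 28.8 CPM in exposed ESCs. In EpiLCs it had 26.0, 25.8 and 27.5 CPM with vehicle and 23.9, 24.4 and 22.9 CPM with Δ9-THC. It was the only member whose exposed libraries were all lower than vehicle in both cell types. In ESCs the log2(fold-change) was −0.27 (SE 0.06), with an unadjusted p of 0.00387 and a edgeR BH-adjusted p of 0.0519. DESeq2 called it (BH-adjusted p = 0.0233, in a range of 0.0233 to 0.937 over 14 alternatives), and with GC and length offsets in edgeR the log2(fold-change) was −0.10. In EpiLCs the log2(fold-change) was −0.16 (SE 0.06; unadjusted p = 0.0419, edgeR BH-adjusted p = 0.314), or −0.076 with the offsets.

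Aen encodes an exonuclease that promotes apoptosis. It had 69.1, 67.8 and 67.2 CPM in vehicle ESCs and 62.2, 63.7 and 64.5 CPM in exposed ESCs, all lower. The log2(fold-change) was −0.10 (SE 0.03, edgeR unadjusted p = 0.0136, edgeR BH-adjusted p = 0.0891), or −0.060 with GC and length offsets. Its EpiLC values, 54.9, 65.5 and 52.98 CPM with vehicle and 55.2, 44.9 and 57.1 CPM with Δ9-THC, overlapped, and the log2(fold-change) there was −0.14 (edgeR BH-adjusted p = 0.623), from −0.042 without vehicle replicate 2 to −0.21 without exposed replicate 3.

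The remaining targets were Sesn1, Zmat3 and Trp53inp1. Sesn1, a sestrin that restrains mTORC1, ranged from 30.3 to 32.04 CPM in vehicle ESCs and from 32.6 to 34.2 CPM in exposed ESCs, clear of each other, with a log2(fold-change) of 0.083 (unadjusted p = 0.0791). Its EpiLC levels, 26.3 to 28.4 CPM with vehicle and 27.8 to 29.8 CPM with Δ9-THC, overlapped. Zmat3, an RNA-binding zinc finger protein, overlapped in both cell types, at 132 to 144 CPM in vehicle and 121 to 133 CPM in exposed ESCs, and at 114 to 154 CPM in vehicle and 121 to 168 CPM in exposed EpiLCs. Trp53inp1, which promotes p53-dependent death and autophagy, also overlapped in both, at 131 to 165 CPM in vehicle and 142 to 182 CPM in exposed ESCs, and at 103 to 143 CPM in vehicle and 124 to 173 CPM in exposed EpiLCs. Its log2(fold-change) was 0.15 in ESCs (−0.0029 with GC and length offsets) and 0.25 in EpiLCs. Without exposed replicate 3 these were 0.069 and 0.12, and without vehicle replicate 2 they were 0.25 and 0.37.

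Taken over the 10 members, exposed and vehicle groups did not overlap for 1 higher (Sesn1) and 4 lower members (Trp53, Cdkn1a, Phlda3, Aen) in ESCs, where 16.7% of all genes were higher and 15.9% lower without overlap. In EpiLCs they did not overlap for 2 higher (Mdm2, Mdm4) and 1 lower member (Phlda3), against 11.2% and 10.6% of all genes. The median log2(fold-change) of the members was −0.044 in ESCs and 0.089 in EpiLCs, beside 0.0041 and 0.0030 over all genes. The members did not share a direction: 3 had a positive and 7 a negative log2(fold-change) in ESCs, and 6 and 4 in EpiLCs.

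**Figure D1:**
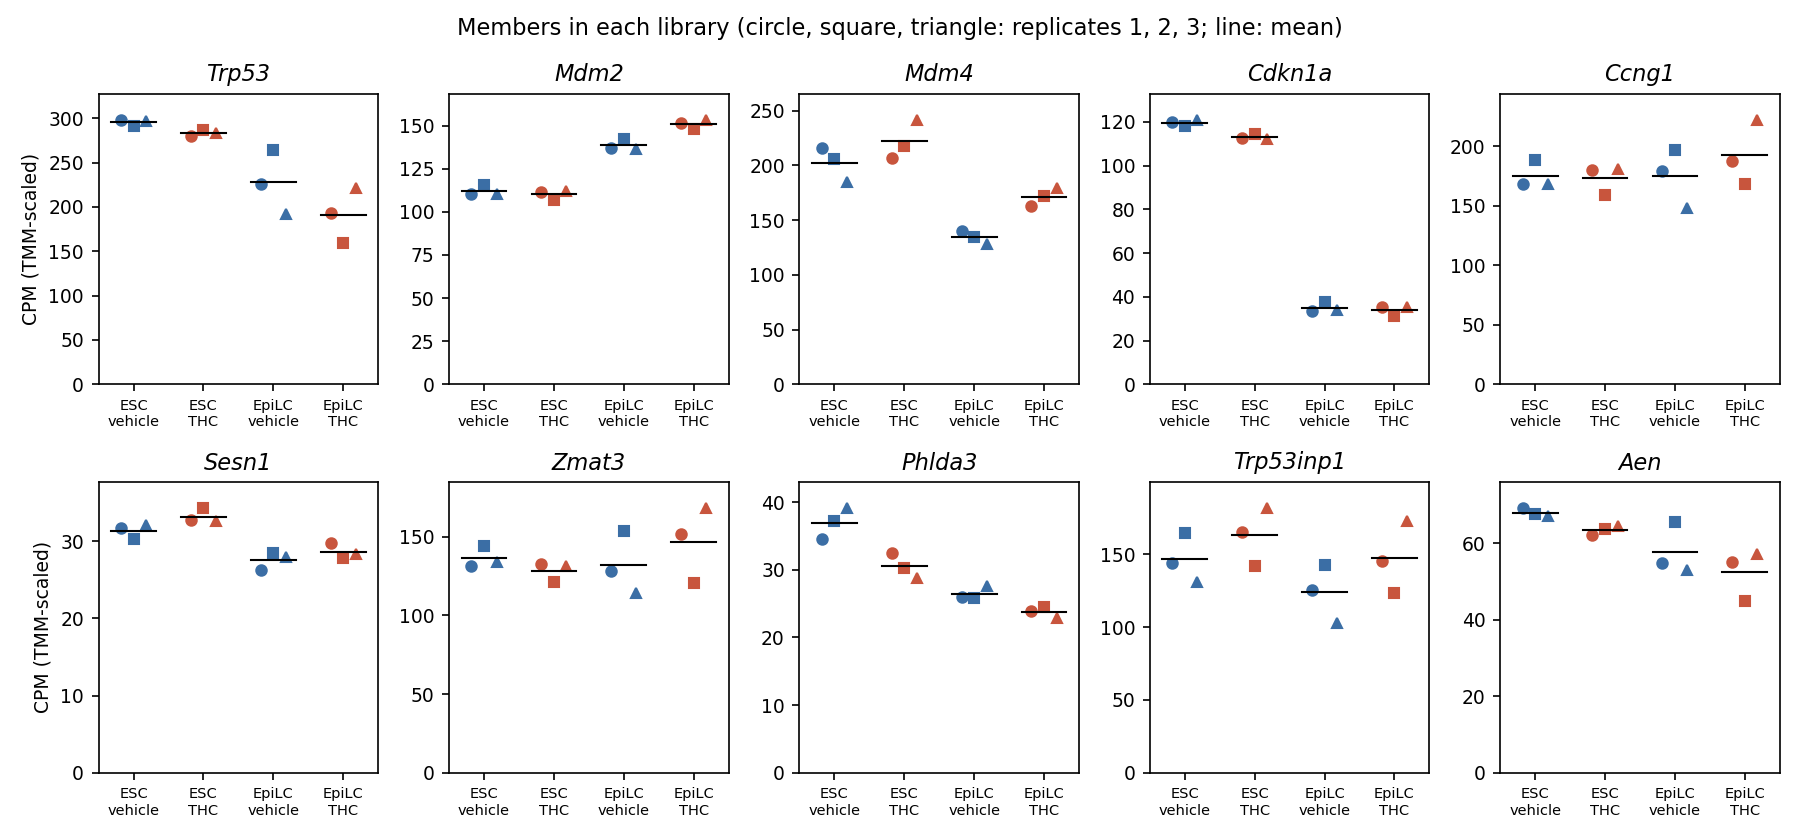
CPM of each of the 10 members in the 12 libraries, with the group mean as a line. Replicates that lie high in the vehicle group lie low in the exposed group.

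**Figure D2:**
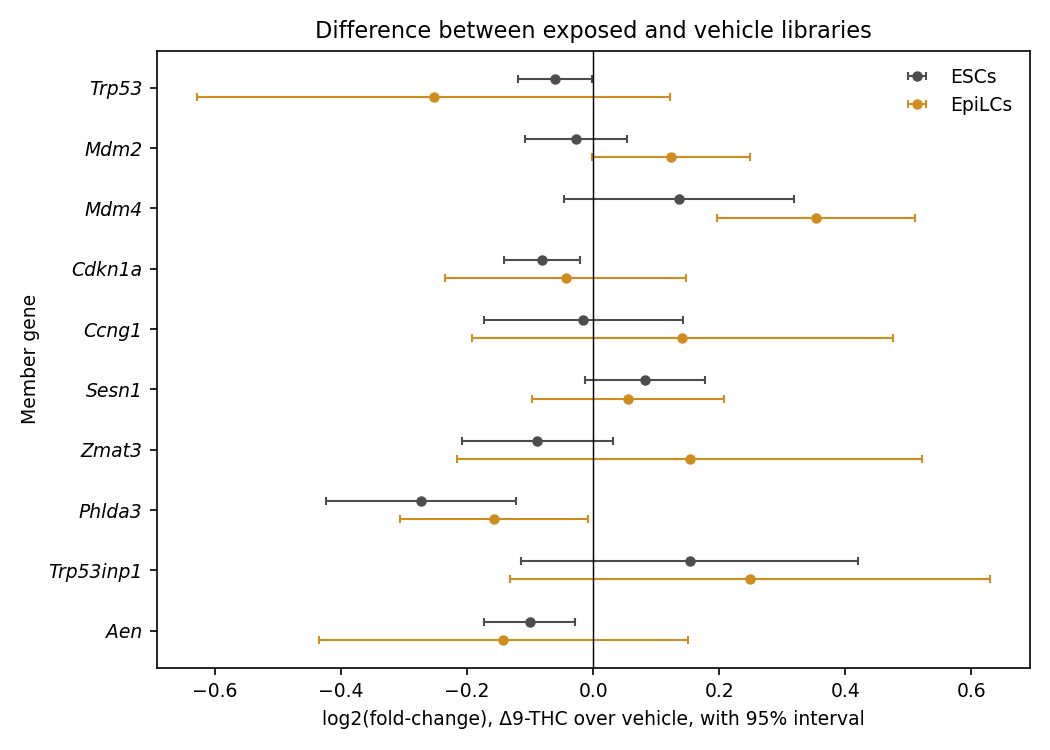
log2(fold-change) of each member between exposed and vehicle libraries in ESCs and EpiLCs, with intervals from edgeR. In these edgeR fits within each cell type no member passed the adjusted threshold; DESeq2 called Phlda3 in ESCs and Mdm4 in EpiLCs.

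These differences, taken with their sign, tended to fall as GC content rose. In GC content of the longest transcript, the members ran from Trp53inp1 (38.8%) to Phlda3 (62.6%). Over the 10 members, its Spearman correlation with log2(fold-change) was −0.78 in ESCs and −0.85 in EpiLCs. Over all genes it was −0.54 in ESCs (n = 13083) and −0.30 in EpiLCs (n = 13696), so that AT-rich genes tended to be read higher in exposed libraries of both. Members share libraries and the correlations are descriptions. With GC and length offsets the correlation over all genes was 0.0025 in ESCs and −0.00049 in EpiLCs, and that over members −0.055 in ESCs and −0.85 in EpiLCs. With them the ESC log2(fold-change) was −0.0061 for Trp53, −0.015 for Cdkn1a, −0.060 for Aen and −0.15 for Ccng1. In EpiLCs it was −0.22 for Trp53, 0.022 for Zmat3 and 0.13 for Trp53inp1.

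Levels were also set side by side between the cell types. The ESC and EpiLC tables were adjusted separately, so the ratios of vehicle levels are described without a test. In CPM, 9 members were lower and 1 was higher in EpiLCs, with a median log2 ratio of −0.24 beside −0.00014 over 12410 shared genes. Without vehicle EpiLC replicate 3 the ratio turned positive for Ccng1 (0.10) and Zmat3 (0.047), and without vehicle ESC replicate 2 for Ccng1 (0.053). Cdkn1a stood apart at a log2 ratio of −1.77 (SD 0.10), 3.42-fold lower, which lay at percentile 3.59 of all shared genes. It was the 1 member lower by more than 2-fold, where 10.6% of shared genes were, and 0 members were higher by more than 2-fold, where 11.1% were. The exposed libraries gave −1.73 for Cdkn1a.

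Mdm4 followed at a log2 ratio of −0.59 (SD 0.13), Phlda3 at −0.48 (SD 0.10), Trp53 at −0.38 (SD 0.23), Aen at −0.24 (SD 0.17) and Sesn1 at −0.19 (SD 0.07). For each of these, all 3 vehicle EpiLC libraries were under all 3 vehicle ESC libraries. The share of all shared genes without overlap between the cell types was not computed. A lack of overlap is therefore not read as particular to the members. Mdm2 alone was higher in EpiLCs, at 0.31 (SD 0.05), also without overlap. The inhibitors thus differed in opposite directions, and in exposed libraries the log2 ratio was 0.46 for Mdm2 and −0.37 for Mdm4. Trp53inp1 (−0.24, SD 0.29), Zmat3 (−0.048, SD 0.23) and Ccng1 (−0.0034, SD 0.23) overlapped between cell types, and in exposed libraries Zmat3 was at 0.19, Ccng1 at 0.15 and Trp53inp1 at −0.15. With 1 vehicle library left out Trp53inp1 ran from −0.13 (EpiLC replicate 3) to −0.36 (EpiLC replicate 2). For Trp53 the ratio was −0.57 in exposed libraries.

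**Figure D3:**
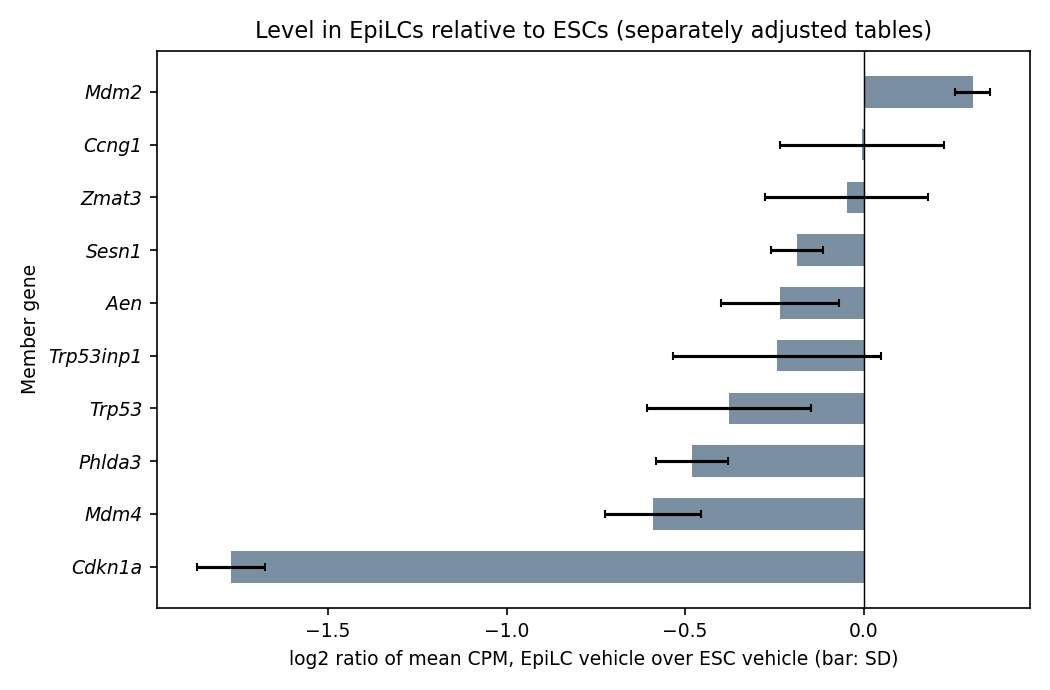
log2 ratio of the mean vehicle level in EpiLCs to that in ESCs for each member, with SD. The tables were adjusted separately and the ratios were not tested.

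Per kilobase of exon, the members ranked differently in the cell types. In vehicle ESCs the level of Trp53 was 73.1 CPM per kb, higher than 95.5% of genes, then Ccng1 at 49.9 and Cdkn1a at 33.7, each clear of the next. Phlda3 (23.7), Trp53inp1 (22.6) and Mdm2 (22.1 CPM per kb) overlapped as neighbours, as did Mdm4 (13.6), Zmat3 (11.9) and Aen (11.7 CPM per kb), and Sesn1 was lowest at 7.87. In vehicle EpiLCs Trp53 (56.3) and Ccng1 (49.8 CPM per kb) overlapped, and Mdm2 came next at 27.3, clear of its neighbours. Trp53inp1 (19.1) and Phlda3 (17.0 CPM per kb) overlapped. Cdkn1a ranked 8 there, against 3 in vehicle ESCs, at 9.85 CPM per kb, overlapping Aen (9.96) and Mdm4 (9.06), with Zmat3 (11.5) above and Sesn1 (6.92) below. In exposed ESCs the order differed in that Trp53inp1 (25.2) and Mdm2 (21.6 CPM per kb) stood above Phlda3 (19.6), which was clear of Mdm2. In exposed EpiLCs Ccng1 (54.9 CPM per kb) stood above Trp53 (47.2), with overlap, and Mdm4 (11.6 CPM per kb) ranked 7, against 9 with vehicle, clear of Cdkn1a (9.56), which stood above Aen (9.03) with overlap.

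A list of 107 other genes of the pathway, also chosen with earlier results of these data known, was read the same way. Of these, 101 had a row in each table, and Trp53rk was not matched to the annotation. In ESCs edgeR called 1 higher and 5 lower, and 41 had an unadjusted p under 0.05, beside 6.91% and 28.7% of all genes. Bbc3, which encodes the death-promoting protein Puma, had 13.4, 14.7 and 12.5 CPM with vehicle and 9.09, 8.20 and 9.85 CPM with Δ9-THC, and its log2(fold-change) was −0.59 (SE 0.09; edgeR BH-adjusted p = 0.0301). Gdf15, a secreted stress cytokine, had 16.2, 15.5 and 14.6 CPM with vehicle and 11.3, 11.98 and 12.7 CPM with Δ9-THC, and its log2 value fell by 0.36 (SE 0.06; edgeR BH-adjusted p = 0.0340). For both, all 3 exposed libraries were under all 3 vehicle libraries, and the same held for the other decreases. These were smaller in log2: Plxnb2, a semaphorin receptor, fell by 0.19 (edgeR BH-adjusted p = 0.0479), Xpc, which recognises damaged DNA, by 0.19 (0.0357), and Psrc1, a spindle protein, by 0.17 (0.0472). Chek1, the checkpoint kinase upstream of p53, had 114, 111 and 110.5 CPM with vehicle and 125, 129 and 130.0 CPM with Δ9-THC, and rose by 0.19 (SE 0.03; edgeR BH-adjusted p = 0.0301), without overlap. In EpiLCs none of the 6 was called, and the difference between cell types had an edgeR BH-adjusted p from 0.131 (Bbc3) to 0.774 (Chek1).

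None of these 6 calls held under every fit. Leaving out any 1 of the 6 ESC libraries ended each of them, with 36 edgeR BH-adjusted p-values from 0.0721 to 0.149. The log2(fold-change) then ranged from −0.65 to −0.51 for Bbc3 and from 0.18 to 0.21 for Chek1, around the values of the full fit. GC and length offsets ended each (0.124 to 0.392), with log2(fold-change) −0.35 for Bbc3, −0.21 for Gdf15, −0.069 for Plxnb2, −0.13 for Xpc, −0.14 for Psrc1 and 0.065 for Chek1. The joint edgeR fit of 12 libraries (BH-adjusted p 0.0629 to 0.456) and replicate number as a block (0.414 to 0.436) ended each too, with log2(fold-change) −0.60 and −0.58 for Bbc3 and 0.17 and 0.19 for Chek1, and DESeq2 called 5, all but Xpc.

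The other list genes named in ESCs were picked for the largest changes among genes whose exposed and vehicle libraries did not overlap. Tnfaip8 (log2(fold-change) 0.23) and Tob1 (0.19) were higher in exposed libraries. Cgrrf1 (−0.52, at mean counts of 40 with vehicle and 24.3 with Δ9-THC) and Dcxr (−0.49) were lower. None of these passed the threshold in edgeR, and DESeq2 called Dcxr. In EpiLCs edgeR called 0 of 101, with 15 at an unadjusted p under 0.05, beside 15.1% of all genes. DESeq2, with 87 calls in the whole table, called Lpin1, a phosphatidate phosphatase, which had 50.4, 54.0 and 59.4 CPM with vehicle and 80.9, 76.5 and 69.1 CPM when exposed, a difference of 0.47 on the log2 scale (edgeR BH-adjusted p = 0.151). Lpin1 and the genes that follow were picked in the same way, from those without overlap in EpiLCs. Atr (0.41), the kinase that activates Chek1, and the long noncoding Trp53cor1 (0.39, under 1 CPM) were also higher. Lower were Ddit4 (−0.29), Ak1 (−0.27) and Gdf15 (−0.25). The joint edgeR fit of 12 libraries, with 411 calls over the 12410 shared genes, called Lpin1, Atr and Ak1. With GC and length offsets the log2(fold-change) was 0.38 for Lpin1, 0.18 for Atr and −0.19 for Ak1, and none was called. The median log2(fold-change) of the list was −0.031 in ESCs and 0.011 in EpiLCs.

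Between vehicle cells, 14 of the 101 shared list genes were over 2-fold higher in EpiLCs and 6 over 2-fold lower, beside 11.1% and 10.6% of all shared genes. The highest log2 ratios were those of the peptide transporter gene Tap1 (3.15, from 1.45 to 12.9 CPM), the mTORC1 inhibitor Ddit4 (2.35, from 102 to 519 CPM), Cgrrf1 (2.33), the Notch ligand Jag2 (2.26) and the p53 relative Trp73 (2.11). The lowest were those of Sulf2 (−1.50, from 261 to 92.4 CPM), Trp53cor1 (−1.42), the glycolysis regulator Tigar (−1.33, from 113 to 44.9 CPM), Ak1 (−1.20) and Pank1 (−1.14). The median over the list was −0.0081.

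Promoter sequence was searched for the p53 consensus element, since Cdkn1a is its textbook carrier and the member that differed most between the cell types. RefSeq promoter windows of 300 bases (250 before to 50 after the gene start, build GRCm38.p6) were found for 8 members, in 12 windows, with none for Zmat3 and Trp53inp1. The element was taken as 2 decamers RRRCWWGYYY side by side, where R is A or G, W is A or T and Y is C or T. The C and the G of each decamer had to match, and at most 2 mismatches were allowed at the other positions of the 20 bases. The element reads alike on both strands. It matched in 107 of 32851 windows (0.326%) and in 106 of 27025 genes (0.392%), and among the members in Ccng1 and Cdkn1a, with 1 mismatch each. Cdkn1a has 2 windows, and the one further downstream (chr17:29093519-29093818) held no match. The Ccng1 match at chr11:40755462-40755481 starts 195 bases before the gene start on the minus strand, and the Cdkn1a match at chr17:29090928-29090947 starts 51 bases before the upstream start on the plus strand. Each is shown 5′ to 3′ on the strand of the gene, with the match in capitals and 20 bases on either side (chr11:40755442-40755501 and chr17:29090908-29090967).
Ccng1: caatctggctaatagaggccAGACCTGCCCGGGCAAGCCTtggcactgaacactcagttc
Cdkn1a: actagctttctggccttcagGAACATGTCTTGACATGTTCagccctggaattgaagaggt
A match describes letters in a window, and p53 binding was not measured. In vehicle ESCs and EpiLCs the mean level of Ccng1 was 175 and 175 CPM, and that of Cdkn1a 119.6 and 35.0 CPM.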

How the data were processed

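Poly(A) RNA of 12 libraries, 3 per group, was analysed. The authors aligned reads with STAR, counted them per gene with HTSeq and deposited counts adjusted for batch by ComBat-seq, in 1 table per cell type; the batches are not named, and the notes name both mm10 and GRCm39. Totals were 23427551 to 32096698 counts per library. All columns matched a sample. Genes with a total over 10 counts were tested with edgeR 4.0.16 in R 4.3.3 (TMM, quasi-likelihood F test, BH over all genes tested, threshold 0.05), exposed against vehicle within each cell type. The difference between cell types was the interaction in a fit of 12 libraries. Joint fits of 12 libraries tested only the 12410 genes with a row in both tables. SE is the size of the log2(fold-change) over the root of F. Exposure results within a cell type were also computed by DESeq2 1.42.0, with RLE size factors, unfiltered or asking 10 counts of every library, with a replicate block, with offsets for GC and length (splines of 5 degrees of freedom), with block and offsets, in a joint fit, and leaving out each library; the difference between cell types by DESeq2, RLE, block, offsets and leaving out each library; and ratios between cell types on TMM over 12 libraries, on total counts, in exposed libraries and leaving out each library. Scripts were tested on simulated data. Exon lengths, and the GC content of each gene's longest transcript, came from GENCODE on GRCm38. Tables and figures used Python 3.11.15, pandas 2.3.3 and matplotlib 3.10.9. The members and lists were chosen with earlier results of these data known. Of the other pathway genes, those named are every gene called (at most 10), the 3 largest increases and 3 largest decreases without overlap in each cell type, and the 5 highest and 5 lowest ratios of EpiLC to ESC level.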

Additional observations from a re-analysis of the deposited data

Results flagged for a closer look

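Lpin1 was lower in every exposed ESC library (57.1, 57.4 and 56.9 CPM against 60.2, 60.1 and 60.9 with vehicle) and higher in every exposed EpiLC library than in any vehicle library of the same cell type. The difference between the exposure effects was tested: it was 0.57 on the log2 scale, with a edgeR BH-adjusted p of 0.0526, which misses the threshold.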

How the results depend on the processing

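Of 440 values of log2(fold-change) for the members under the alternatives, 16 turned direction; sizes moved more often (Trp53 in ESCs was −0.0061 with offsets), and fits that call few genes say little of a threshold. Genes called in ESCs numbered 906, but 5 with replicate number as a block, 2 with GC and length offsets, 3 with both, 31 in a joint fit and 0 to 1 with a library left out; in EpiLCs 0, but 87 by DESeq2 and 411 in a joint fit (0 to 0 with a library left out); for the difference between cell types 4, but 0 with offsets, 0 with the block, 133 by DESeq2 and 0 to 0 with a library left out. Members called were 0, but 1 in ESCs and 1 in EpiLCs by DESeq2 and 1 in EpiLCs in a joint fit. Directions turned for Trp53inp1 in ESCs with offsets (−0.0029, and −0.0029 with the block) and Cdkn1a in EpiLCs (0.015, and 0.016 with the block), and with a library left out for Ccng1 in ESCs (−0.047 to 0.042), Cdkn1a in EpiLCs (−0.088 to 0.013), and, between cell types, Sesn1 (−0.043 to 0.015), Trp53inp1 (−0.012 to 0.22) and Aen (−0.087 to 0.073). The causes were not tested. Replicate numbers are not known to pair samples. In the adjusted counts, however, same-numbered libraries were tied, deviating in opposite directions (r −0.987 to −0.977). Libraries with different numbers gave r from 0.22 to 0.70. Over 189 ratios of EpiLC to ESC level 179 moved by less than 1 SD; the other 10 were in exposed libraries. With a library left out the ratio turned for Ccng1 (−0.098 to 0.10) and Zmat3 (−0.17 to 0.047). Low counts limit Tap1 and Cgrrf1 in ESCs and Trp53cor1 in both cell types. The mean counts of Trp53cor1 were lowest in EpiLCs, 17.3 with vehicle and 22 with Δ9-THC.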
